A study of Caenorhabditis elegans with 16 samples.

Results

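The UDP-glucuronosyltransferase (ugt) genes of Caenorhabditis elegans were taken as every gene of the deposited count table whose symbol is ugt- followed by a number. This gave 66 of the 46904 genes in the table, of which 28 had enough counts to be tested, among 9787 genes tested in all. RNA of whole synchronised worms was counted in 16 libraries, 4 in each of 4 groups: cua-1(H828Q) mutants on 100 µM CuCl2, cua-1(H828Q) mutants without added copper, control worms on 100 µM CuCl2 and control worms without added copper. All worms spent 3 days on agar plates at 20 °C with Escherichia coli OP50 as food. The mutant carries a missense allele of cua-1, the worm's copper-transporting ATPase and the homolog of the human Menkes and Wilson disease pumps. The labels name neither the control strain nor how the allele was made, so a difference between genotypes includes any difference in background.

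UDP-glucuronosyltransferases are membrane enzymes of the endoplasmic reticulum that attach a sugar, taken from a UDP-sugar, to small fat-soluble molecules, which makes these more soluble and easier to export. They act in the second phase of detoxification, after cytochrome P450 enzymes and beside glutathione S-transferases, and efflux pumps of the ABC class then carry the conjugates out of the cell. In C. elegans the family is large, many of its genes are active in the intestine, and foreign compounds are conjugated mainly to glucose. Most members are known by sequence similarity, and no substrate is given here for a single member.

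Library totals ran from 1891008 to 4001750 counts, so that 3 counts of a gene stood for 0.661 to 1.69 CPM (the read count divided by the scaled size of its library). These floors cover counting error only. In 5 libraries, called long-depleted here, genes with transcripts over 3000 bp were scarce against genes under 800 bp: untreated control replicates 1, 3 and 4, copper-treated control replicate 1 and copper-treated mutant replicate 4. Their difference in median log2 CPM was between -2.28 and -0.68, against 0.19 to 1.09 in the other 11 libraries. No label marks these libraries, and they were picked by that measured difference. The tested ugt transcripts were 1542 to 2758 bp long with a median of 1718.5 bp, against 1381.5 bp over all tested genes. The targeted gene cua-1 differed by 1.29 ± 0.43 (log2, standard error) between untreated mutant and untreated control (adjusted p = 0.0429, edgeR). Its level was 36.8, 20.1, 32.8 and 27.5 CPM in the untreated mutant, against 5.05, 22.1, 8.82 and 11.2 CPM in the untreated control, where the 1 library that is not long-depleted, replicate 2, lay within the range of the mutant. Counts at the 3′ end do not show whether a transcript carries the missense change.

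The 66 ugt genes together took 340 to 1550 counts per library, and 8.26% of their counts over the 16 libraries fell in the 38 members that were not tested. Counts were concentrated in a few genes, on a scale of 3′ counts that are not divided by transcript length: ugt-23 held 11.4% of all ugt counts, ugt-46 10.2%, ugt-22 9.36%, ugt-58 7.11% and ugt-64 4.4%. The tested members ranged from 106 counts over the 16 libraries (ugt-39) to 1555 (ugt-23). At the other end, ugt-34, ugt-35 and ugt-38 had 0 counts in all 16 libraries, and 15 members had 1 to 10. Chromosome V carries 41 of the 66 genes, chromosome IV 12, chromosome I 5, chromosome X 4, chromosome III 3 and chromosome II 1 (Ensembl annotation of WBcel235, the assembly also known as ce11). On these chromosomes 36 members lie in 12 runs in which neighbouring ugt genes are at most 5000 bp apart.

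Summed over the 66 members, the normalised read count was 257, 277, 286 and 177 CPM in copper-treated mutant replicates 1 to 4 and 342, 315, 348 and 316 in the untreated mutant. It was 153, 213, 217 and 247 CPM in the copper-treated control and 203, 187, 151 and 191 in the untreated control. All 4 untreated mutant libraries lay above the other 12. Copper-treated mutant replicate 4 and copper-treated control replicate 1, the lowest of their groups, are both long-depleted. Without the long-depleted libraries the sums were 274 ± 14.9 CPM (SD, n = 3) in the copper-treated mutant, 330 ± 16.9 (n = 4) in the untreated mutant, 226 ± 18.3 (n = 3) in the copper-treated control and 187 in the 1 remaining untreated control library. The number of members with at least 1 count was 44 to 50, 49 to 53, 38 to 51 and 29 to 41 in the same order. In whole worms, fewer cells of a type and less RNA per cell cannot be told apart.

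**Figure D1:**
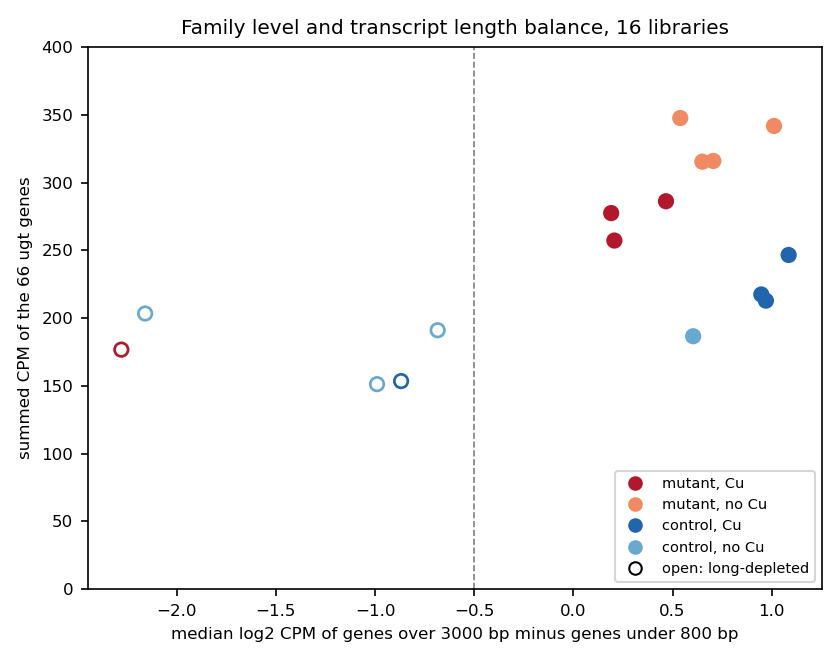
Summed CPM of the 66 ugt genes (vertical axis) against the balance of long and short transcripts (horizontal axis, difference of median log2 CPM) in each of the 16 libraries, coloured by group. The 5 long-depleted libraries (open points) lie between 151 and 203 CPM, and the 4 untreated mutant libraries lie between 315 and 348 CPM.

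Without copper, ugt genes were higher in the mutant than in the control as far as they differed. Of the 28 tested members 10 rose and 0 fell, which is 35.7% of them, while 21.9% of all tested genes were called, 9.39% higher and 12.5% lower (edgeR, adjusted p under 0.05 over all genes). An unadjusted p under 0.05 was found for 15 members. The share of all genes at an unadjusted p is not given for any comparison. Such counts, here and below, are therefore not read as results about the members. The largest difference was that of ugt-41, which was almost without counts in the control, followed by ugt-16, ugt-49, ugt-63 and ugt-6. Of the 10, ugt-12 had the smallest standard error, at 12.8 ± 1.09 CPM in the mutant and 3.80 ± 0.33 CPM in the control (SD, n = 4 each). The median log2 fold change of the 28 was 1.02, against 0.0022 over all genes. A gene can pass the filter on low counts through its higher group alone, so these figures describe the tested members and not the family.

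The gene ugt-12 (WBGene00020592, WBcel235 chromosome V, 4887165 to 4889629, minus strand) had 12.3, 11.7, 14.3 and 12.9 CPM in untreated mutant libraries, against 4.13, 3.74, 3.97 and 3.37 CPM in untreated control libraries. The 2 groups did not overlap, at a log2 fold change of 1.74 ± 0.27 (adjusted p = 0.00162). The control values rest on 9, 12, 9 and 6 counts, so their closeness is not a measure of precision. For ugt-63 (WBGene00015449, chromosome V, 5108180 to 5110772, minus strand) the values were 10.6, 12.7, 10.1 and 11.3 CPM in the mutant, against 1.38, 0.934, 1.76 and 5.62 CPM in the control. Its groups did not overlap either, with a fold change of 2.30 ± 0.43 (adjusted p = 0.00369). Counts of ugt-41 (WBGene00017336, chromosome V, 7161068 to 7163595, minus strand) were 23, 19, 12 and 24 in the mutant, against 0, 0, 2 and 0 in the control. With 78 against 2 counts the ratio was 22.05, with an exact 95% counting interval of 5.90 to 185 (adjusted p = 0.00277). These 3 calls held in all of their alternatives, 16 each for ugt-12 and ugt-63 and 15 for ugt-41.

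Low counts in the control also marked ugt-16 (WBGene00013901, chromosome V, 12825024 to 12827442, plus strand) and ugt-6 (WBGene00013904, chromosome V, 12795481 to 12798224, minus strand). Counts of ugt-16 were 13, 17, 14 and 20 in the mutant, against 3, 0, 1 and 0 in the control, a change of 3.06 ± 0.74 (adjusted p = 0.0138). Counts of ugt-6 were 16, 8, 6 and 8 in the mutant, against 3, 0, 1 and 0 in the control, a change of 2.29 ± 0.78 (adjusted p = 0.0453). Both genes had no overlap between the groups, yet at such counts the size of the difference is poorly fixed. The call of ugt-16 ended with the length balance as a covariate (adjusted p = 0.0574), the 1 of its 16 alternatives to do so. That of ugt-6 ended in 11 of 15, with adjusted p up to 0.167, among them leaving out untreated control replicate 2, 3 or 4 or any untreated mutant replicate.

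The gene ugt-22 (WBGene00007455, chromosome IV, 13639260 to 13644567, plus strand), among the members with the most counts, had 46.3, 36.6, 29.4 and 36.8 CPM in the mutant, against 13.3, 22.7, 6.17 and 21.9 CPM in the control. The mutant libraries were all higher, at 1.21 ± 0.37 (adjusted p = 0.0315). For ugt-49 (WBGene00007070, chromosome V, 10372321 to 10374261, plus strand) the values were 14.3, 12.2, 16.1 and 9.78 CPM in the mutant, against 2.75, 4.05, 0 and 3.37 CPM in the control, a rise of 2.32 ± 0.68 (adjusted p = 0.0286). For ugt-61 (WBGene00018206, chromosome V, 4742422 to 4745373, plus strand) they were 7.72, 8.59, 5.98 and 6.95 CPM in the mutant, against 2.75, 1.56, 2.65 and 4.49 CPM in the control, a rise of 1.40 ± 0.42 (adjusted p = 0.0308). Neither gene had overlapping groups.

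With 6.17, 7.46, 5.46 and 5.15 CPM in the mutant, against 3.67, 2.49, 1.32 and 2.25 CPM in the control, ugt-13 (WBGene00019232, chromosome V, 4908884 to 4911399, plus strand) rose by 1.3 ± 0.40 (adjusted p = 0.0338). The gene ugt-48 (WBGene00015965, chromosome V, 5545669 to 5548062, minus strand) had 5.51, 9.71, 18.7 and 7.47 CPM in the mutant, against 3.67, 2.18, 2.65 and 6.74 CPM in the control, a rise of 1.49 ± 0.44 (adjusted p = 0.0300). Of the 10 called genes it was the 1 whose groups overlapped. The calls of ugt-22, ugt-49, ugt-61, ugt-13 and ugt-48 did not hold throughout. That of ugt-22 ended in 7 of 16 alternatives (adjusted p up to 0.184), without control replicate 1 or 3 or mutant replicate 1, 2 or 4, and without the long-depleted libraries its change was 0.66. That of ugt-49 ended in 7 (up to 0.179) and that of ugt-61 in 8 (up to 0.198), both without control replicate 1 or 3 or any mutant replicate. That of ugt-13 ended in 9 (up to 0.121), without control replicate 3 or 4 or any mutant replicate, and that of ugt-48 in 6 (up to 0.0970), without control replicate 1 or 3 or mutant replicate 2 or 3.

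In 13 of the 28 tested members, all 4 untreated mutant libraries lay above all 4 untreated control libraries, and in 0 members all lay below, while 16.4% of all tested genes lay above and 12.4% below in this way. Of the 18 members that were not called, 13 had a positive fold change. The values closest to the threshold were those of ugt-23 (1.31 ± 0.47, adjusted p = 0.0541) and ugt-29 (1.60 ± 0.60, adjusted p = 0.0606), and the most negative was that of ugt-17 (-0.67 ± 0.56, adjusted p = 0.363).

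Long-depleted libraries make up 0 of the 4 untreated mutant libraries and 3 of the 4 untreated control libraries. Without the long-depleted libraries, and so against untreated control replicate 2 alone, 11 members were higher and 0 lower, 8 of them among the 10 above, while 17.5% of all genes were called. This fit takes the spread of that single library to be that of the other groups. That fit had ugt-12 at 1.72, ugt-49 at 1.64, ugt-48 at 2.17 and ugt-61 at 2.16. It also called ugt-63, of which replicate 2 held 3 counts, and 3 members that were not called with all libraries, ugt-46 (1.68), ugt-23 (0.89) and ugt-7. Replicate 2 held 1 count of ugt-7, against 11, 4 and 6 in control replicates 1, 3 and 4, and with all libraries the fold change of ugt-7 was 1.01 ± 0.51 (adjusted p = 0.142). The fit called no longer ugt-13 (adjusted p = 0.121) and ugt-22 (adjusted p = 0.116). Replicate 2 held 0 counts of ugt-41, ugt-16 and ugt-6, so its floor of 3 counts (0.934 CPM) was used instead. The mutant level was 5.0, 4.10 and 2.44 times that floor, which does not bound the difference between the groups. Control replicate 1, a long-depleted library, held 1.38 CPM of ugt-16 and of ugt-6. The count of called members was 4 with the length balance as a covariate. It was 4 without control replicate 3 or without mutant replicate 2, and 5 without mutant replicate 1, 3 or 4. Over all genes the fits without 1 library called 743 to 3809, against 2141 with all libraries.

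**Figure D2:**
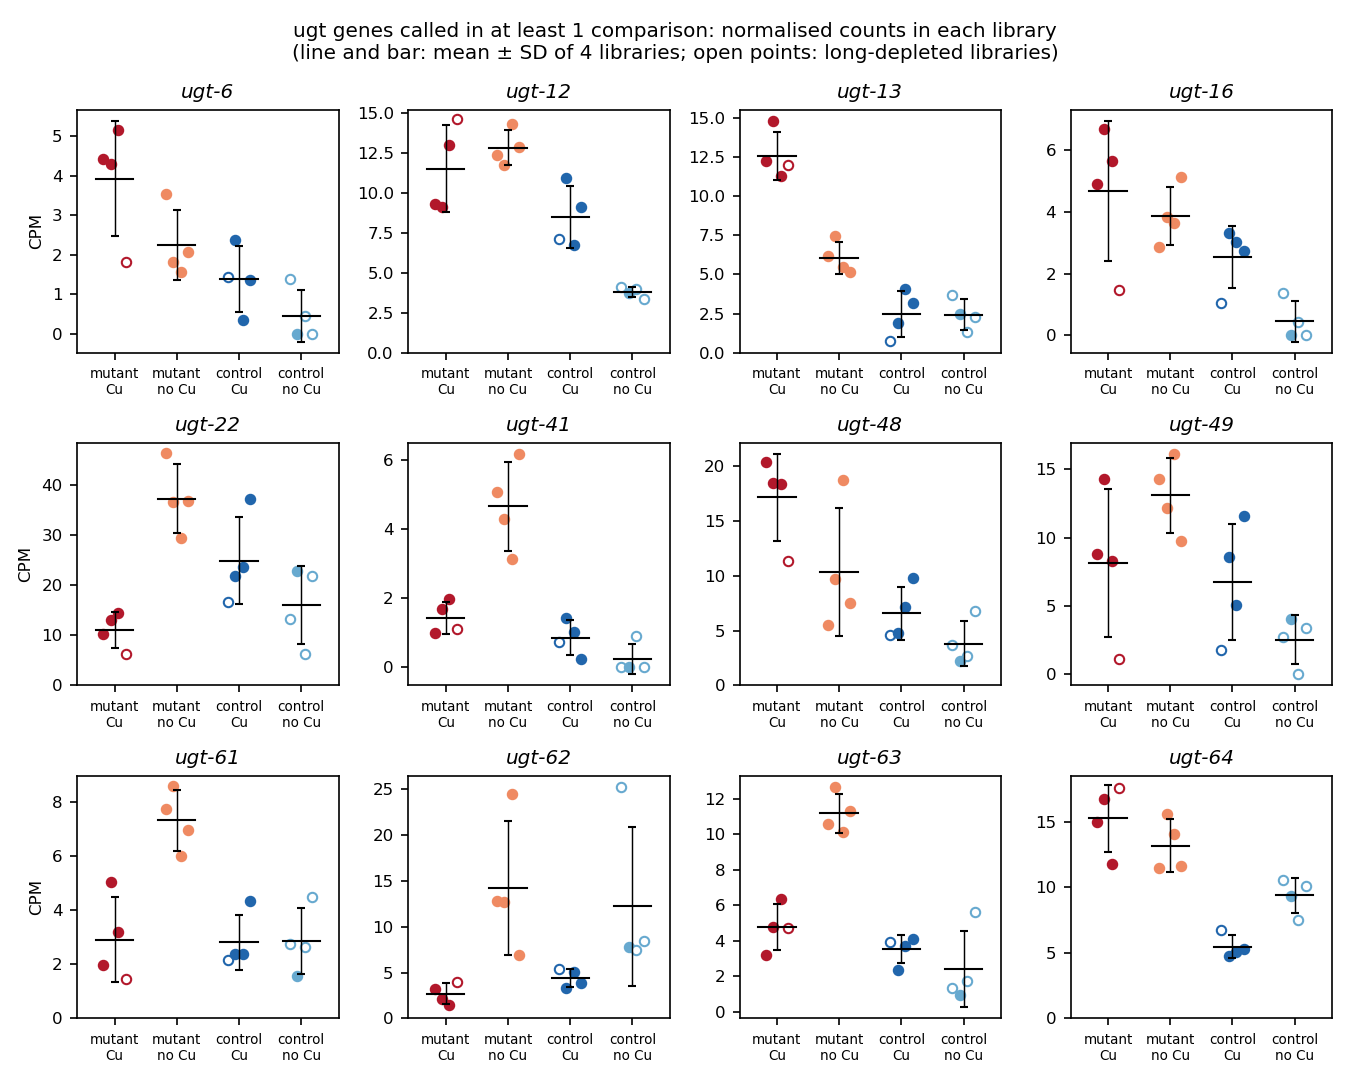
Normalised read counts (CPM, vertical axes) of the 12 ugt genes called in at least 1 comparison, in each of the 16 libraries (points, open where long-depleted), with the mean and SD of 4 libraries per group. For ugt-12 the untreated control lies at 3.37 to 4.13 CPM, apart from the other 3 groups, and for ugt-22 the copper-treated mutant lies at 6.21 to 14.5 CPM.

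On copper, 2 ugt genes were called between the genotypes. Of the 28 tested members 2 rose in the mutant, ugt-13 and ugt-64, and 0 fell, which is 7.14% of them, while 6.93% of all tested genes were called, 6.39% higher and 0.542% lower (edgeR). An unadjusted p under 0.05 was found for 5 members. The share of members that rose is near that of all genes. The median log2 fold change was 0.41, against -0.040 over all genes.

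The gene ugt-13 had 12.3, 14.8, 11.3 and 12 CPM in copper-treated mutant libraries, against 0.712, 1.9, 4.06 and 3.19 CPM in copper-treated control libraries. The lowest mutant library was above the highest control library by more than the whole range of the control, and the fold change was 2.30 ± 0.38 (adjusted p = 0.00146). The gene ugt-64 (WBGene00015577, chromosome V, 3503080 to 3506352, minus strand) had 15, 16.7, 11.8 and 17.5 CPM in the mutant, against 6.77, 4.76, 5.07 and 5.25 CPM in the control, a rise of 1.47 ± 0.25 (adjusted p = 0.00159). Each call held in all of its 16 alternatives, and the values without the long-depleted libraries were 1.99 and 1.49.

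Beside these, ugt-48 had 20.4, 18.4, 18.4 and 11.3 CPM in the mutant, against 4.63, 4.76, 7.10 and 9.81 CPM in the control, with no overlap and a fold change of 1.35 ± 0.40 just short of a call (adjusted p = 0.0510). The gene ugt-22 had 10.3, 13.1, 14.5 and 6.21 CPM in the mutant, against 16.7, 21.9, 23.7 and 37.2 CPM in the control, where the mutant libraries were all lower (-1.17 ± 0.37, adjusted p = 0.0682). When the long-depleted libraries were left out, both were called (1.31, adjusted p = 0.00568, and -1.18, adjusted p = 0.000200). In that fit 4 members rose, ugt-6 being the other (1.80), and 1 fell, while 23.4% of all genes were called. With all libraries, the groups did not overlap in 4 members with the mutant above and 1 with the mutant below, while 11.3% and 3.16% of all genes lay so.

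In the control, copper went with a higher level of 1 ugt gene. Of the 28 tested members ugt-12 rose and 0 fell (3.57% of members, while 1.78% of all tested genes were called, 0.46% higher and 1.32% lower, edgeR). An unadjusted p under 0.05 was found for 6 members. The level of ugt-12 was 7.12, 11, 6.76 and 9.12 CPM on copper, against the 3.37 to 4.13 CPM without copper given above, with no overlap. The fold change was 1.14 ± 0.28 (adjusted p = 0.0458). This call was weak: it ended in 11 of 16 alternatives (adjusted p up to 0.322), among them leaving out control replicate 1, 3 or 4 without copper or replicate 2, 3 or 4 with copper. It was 1.19 when the long-depleted libraries were left out (adjusted p = 0.152). The 1 member that this reduced set did call for copper in the control was ugt-16 (adjusted p = 0.0198), while 4.78% of all genes were called. The lone untreated control library held 0 counts of ugt-16. Its level on copper was 3.17 times a floor of 3 counts in that library, which does not bound the difference between the groups.

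Members with larger but less certain differences in the control were ugt-16, at 3, 7, 9 and 12 counts on copper, against 3, 0, 1 and 0 counts without it (2.45 ± 0.78, adjusted p = 0.127), and ugt-62 and ugt-64, both lower on copper in all 4 libraries. For ugt-62 (WBGene00010904, chromosome III, 4537281 to 4540623, minus strand) the control had 5.34, 3.33, 5.07 and 3.88 CPM on copper, against 25.2, 7.79, 7.49 and 8.43 CPM without (-1.46 ± 0.47, adjusted p = 0.137). The groups of ugt-62 did not overlap, and 1 untreated library, replicate 1, was far above the rest of the higher group. Without the long-depleted libraries, replicate 1 among them, the change was -0.96 against 1 untreated library. For ugt-64 the untreated control had 10.6, 9.34, 7.49 and 10.1 CPM, all above the copper-treated control values given before (-0.77 ± 0.26, adjusted p = 0.145). The copper-treated control libraries lay above all untreated ones in 1 tested member and below in 2. Over all tested genes these shares were 2.3% and 2.32%.

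In the mutant, copper went with lower levels of 2 ugt genes, ugt-22 and ugt-62, and 0 rose (7.14% of the 28 members fell, while 2.24% of all tested genes were called, 1.78% higher and 0.46% lower, edgeR). An unadjusted p under 0.05 was found for 6 members. The level of ugt-22 was 11.03 ± 3.66 CPM on copper, against 37.3 ± 6.94 CPM without it (SD, n = 4 each), with copper-treated libraries at 6.21 to 14.5 CPM and untreated ones at 29.4 to 46.3. Its log2 fold change was -1.74 ± 0.37 (adjusted p = 0.0150). The level of ugt-62 was 3.19, 2.15, 1.47 and 4.02 CPM on copper, against 12.8, 12.7, 24.4 and 6.95 CPM without it, a change of -2.40 ± 0.48 (adjusted p = 0.00962). Neither gene had an overlap between the groups.

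The call of ugt-62 held in all 16 alternatives, with fold changes from -2.92 to -2.01. That of ugt-22 ended without untreated mutant replicate 1 (adjusted p = 0.0618) and without copper-treated mutant replicate 1 (0.0547), which each left 1 call. Of the 26 members not called, ugt-41 had 0.982, 1.67, 1.96 and 1.10 CPM on copper, against 5.07, 4.29, 3.12 and 6.18 CPM without it (-1.67 ± 0.51, adjusted p = 0.119). The values of ugt-63 were 3.19, 4.78, 6.38 and 4.75 CPM on copper, below all 4 untreated libraries given above (-1.22 ± 0.37, adjusted p = 0.113). Likewise ugt-61 had 1.96, 5.02, 3.19 and 1.46 CPM on copper, below its untreated range of 5.98 to 8.59 (-1.29 ± 0.39, adjusted p = 0.109). In all, the copper-treated libraries lay below all untreated ones in 6 members and above in 1, while 8.49% and 11.2% of all tested genes lay so. The 1 member above was ugt-13 (1.05 ± 0.34, adjusted p = 0.148).

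Copper-treated mutant replicate 4 is long-depleted. Without the long-depleted libraries 7 members fell and 2 rose, while 14.5% of all genes were called. The 7 were ugt-22 (-1.57), ugt-62 (-2.64), ugt-41 (-1.59), ugt-63 (-1.23), ugt-61 (-1.11), ugt-46 (-0.67) and ugt-23 (-0.52), and the 2 were ugt-13 (1.05) and ugt-48 (0.87).

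The interaction compares the copper response of the mutant with that of the control. Of the 28 tested members 0 had a higher and 2 a lower response in the mutant (7.14%), while 5.38% of all tested genes were called, 4.11% higher and 1.28% lower (edgeR). An unadjusted p under 0.05 was found for 9 members. For ugt-22 the fold change on copper was -1.74 ± 0.37 in the mutant and 0.64 ± 0.37 in the control (adjusted p = 0.310), a difference of -2.38 ± 0.52 (adjusted p = 0.0111). That difference was called in 22 of 23 alternatives and ended with the length balance as a covariate (-1.51, adjusted p = 0.0626). For ugt-12 the fold change was -0.16 ± 0.24 in the mutant (adjusted p = 0.763) and 1.14 ± 0.28 in the control, a difference of -1.30 ± 0.37 (adjusted p = 0.0498).

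The difference of ugt-12 lies at the threshold. Its call ended in 17 of 23 alternatives, among them leaving out any untreated mutant library, copper-treated mutant replicate 1, 2 or 3, copper-treated control replicate 2, 3 or 4 or untreated control replicate 1, 3 or 4, with adjusted p up to 0.110. Next came ugt-63 (-1.89 ± 0.59, adjusted p = 0.0724) and ugt-41 (-3.35 ± 1.09, adjusted p = 0.0797). Of the 28 differences 21 were negative, with a median of -0.67, against 0.085 over all genes. The untreated libraries enter this value as well as the comparison of the untreated genotypes above, so these are not independent. Without the long-depleted libraries ugt-22 (-1.84), ugt-46 (-1.42), ugt-63 and ugt-16 were lower, while 12.2% of all genes were called. That fit left 1 untreated control library, which held 0 counts of ugt-16. With all libraries the difference was -0.52 ± 0.46 for ugt-46 (adjusted p = 0.428) and -2.16 ± 0.93 for ugt-16 (adjusted p = 0.154). With the length balance as a covariate 0 members were called. Leaving out 1 library gave 1 call in 11 of 16 fits, those without copper-treated mutant replicate 1, 2 or 3, any untreated mutant replicate, copper-treated control replicate 2, 3 or 4 or untreated control replicate 1. It gave 5 calls without copper-treated control replicate 1 and 3 without untreated control replicate 2. Over all genes these 16 fits called 330 to 2159, against 527 with all libraries, so the member counts moved along with a moving total.

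**Figure D3:**
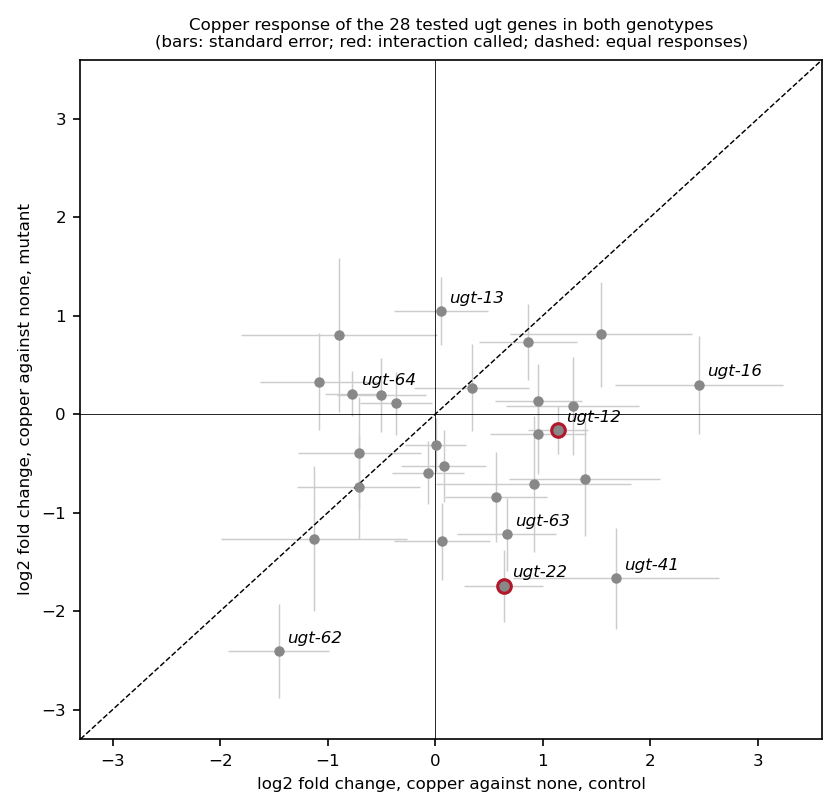
Log2 fold change on copper in the mutant (vertical axis) against that in the control (horizontal axis) for the 28 tested ugt genes, with standard errors as bars, the 2 called interactions in red and equal responses as a dashed line. The gene ugt-22 lies at -1.74 in the mutant and 0.64 in the control and ugt-12 at -0.16 in the mutant and 1.14 in the control, while ugt-62 is low in both (-2.40 in the mutant and -1.46 in the control).

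The 3 genes among the 5 with the most counts that were called in no comparison with all libraries were ugt-23, ugt-46 and ugt-58. The gene ugt-23 (WBGene00007650, chromosome X, 9922862 to 9925173, minus strand) had 26.7, 24.6, 37.0 and 4.38 CPM in the copper-treated mutant, 45.2, 40.9, 34.3 and 46.9 in untreated mutants, 8.19, 31.4, 25.0 and 35.1 in copper-treated controls and 15.6, 21.8, 11.9 and 18.0 in the untreated control. Its lowest values in both copper-treated groups came from the long-depleted libraries. The gene ugt-46 (WBGene00015141, chromosome X, 525928 to 530289, minus strand) had 24.1, 21.3, 23.5 and 27 CPM in the copper-treated mutant, 44.8, 35.2, 29.6 and 34.8 in untreated mutants, 23.9, 18.6, 24.0 and 14.8 in copper-treated controls and 21.1, 10.9, 13.7 and 40.4 in the untreated control. Here untreated control replicate 4, a long-depleted library, reached the level of the untreated mutant. The difference between the untreated groups was 0.76 ± 0.33 with all libraries (adjusted p = 0.0928). Without the long-depleted libraries it was 1.68, against untreated control replicate 2 alone.

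The gene ugt-58 (WBGene00009450, chromosome II, 9584384 to 9586784, minus strand) differed least between groups among these. Its means were 16.9 ± 1.16 CPM in the copper-treated mutant, 21.01 ± 4.84 in the untreated mutant, 17.3 ± 1.95 in the copper-treated control and 17.5 ± 7.45 in the untreated control (SD, n = 4 each). Its 4 fold changes between groups ran from -0.31 ± 0.28 for copper in the mutant to 0.28 ± 0.28 for the untreated mutant, with adjusted p of at least 0.456.

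**Figure D4:**
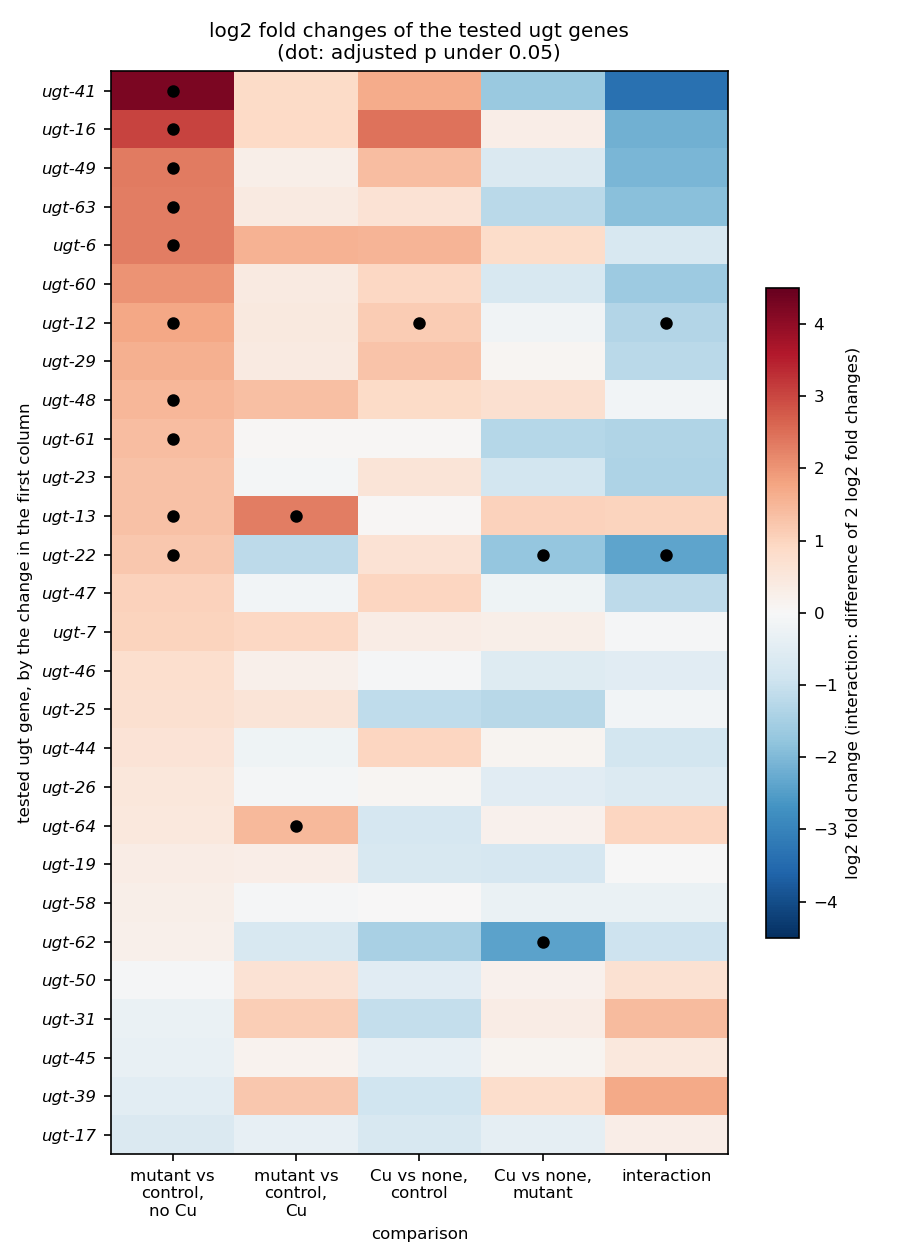
Log2 fold changes (colour) of the 28 tested ugt genes (rows) in the 5 comparisons (columns), with a dot where the adjusted p was under 0.05. Most of the 17 dots stand in the first column, the untreated mutant against the untreated control, with 10 dots from ugt-41 (4.23) to ugt-22 (1.21).

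In the runs, the direct neighbours of called genes were too low to test, except ugt-39 beside ugt-41, which was tested and not called. The longest run of neighbouring members, 7 genes between 4887165 and 4911399 on chromosome V, holds ugt-12 at one end and ugt-13 at the other. Both rose in the untreated mutant. Between the genotypes on copper ugt-13 was called and ugt-12 was not (0.44 ± 0.25, adjusted p = 0.438), a contrast between the genes that was not tested. For ugt-12 the mean was 11.5 ± 2.74 CPM in the copper-treated mutant, 12.8 ± 1.09 in untreated mutants, 8.49 ± 1.94 in copper-treated controls and 3.80 ± 0.33 in untreated controls (SD, n = 4 each). For ugt-13 the means were 12.6 ± 1.53, 6.06 ± 1.02, 2.47 ± 1.47 and 2.43 ± 0.967 CPM in the same order. The 5 genes between them were too low to test. Of these ugt-11 had 29, 38, 7 and 3 counts over the 4 libraries of the copper-treated mutant, untreated mutant, copper-treated control and untreated control, and ugt-8 had 28, 7, 8 and 1. The genes ugt-9, ugt-10 and ugt-14 had 41, 5 and 5 counts in all.

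**Figure D5:**
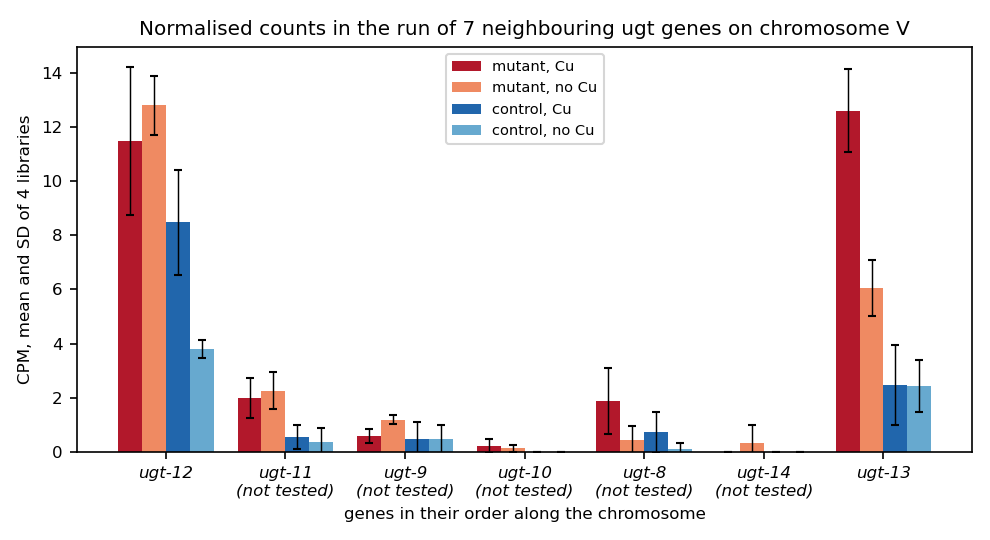
Normalised read counts (CPM, mean and SD of 4 libraries) of the 7 neighbouring ugt genes on chromosome V in their order along the chromosome, by group. The genes at the ends, ugt-12 and ugt-13, carry most of the counts, and ugt-13 is highest in the copper-treated mutant (12.6 CPM) whereas ugt-12 is low in the untreated control alone (3.80 CPM).

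Other runs also held members with many and with few counts. In the run from 7157142 to 7169281 on chromosome V, ugt-41 had 22, 78, 9 and 2 counts in the copper-treated mutant, untreated mutant, copper-treated control and untreated control, its neighbour ugt-39 had 44, 26, 15 and 21, and ugt-36 had 1 count in all. In the run from 12820260 to 12830114, ugt-16 lies between ugt-18 and ugt-15. The counts of ugt-18 were 37, 3, 2 and 7 in the same groups and those of ugt-15 were 1, 3, 4 and 0. The run from 12790676 to 12800271 holds ugt-5, ugt-4, ugt-6 and ugt-3, of which ugt-6 alone was tested.

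The 38 members that were not tested had 0 to 104 counts over the 16 libraries, with a median of 13.5 and 1131 in all. Some were uneven between groups, and since they did not pass the filter they are given as counts without a test. The gene ugt-18 had 5, 13, 18 and 1 counts in copper-treated mutant replicates 1 to 4, against 0, 0, 2 and 0 in the copper-treated control. The gene ugt-30 had 10, 4, 10 and 6 counts in the untreated mutant, against 0, 0, 0 and 0 in the untreated control, and ugt-11 had 9, 14, 9 and 6 against 0, 1, 0 and 2. When every gene with at least 1 count was tested, which took in 63 members and 18721 genes, ugt-30 (adjusted p = 0.0176) and ugt-11 (adjusted p = 0.0412) were called higher in the untreated mutant with 9 of the 10 genes above, while 9.01% of all genes were called. The call of ugt-6 ended there. The same fit called 2 members for the genotypes on copper (3.9% of all genes), 0 for copper in the control (0.871%), 2 for copper in the mutant (1.28%) and 1 for the interaction (2.75%).

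Exons of several members overlap exons of another gene, and the strand setting of the counting is not given in the sources used here, so reads of such pairs cannot be told apart with certainty. Among the called genes these are ugt-22 with srz-29, ugt-48 with cft-1 and ugt-64 with C07G3.10, each on the opposite strand. The partners had 0, 36 and 0 counts over the 16 libraries, against 1282, 555 and 602 of the ugt genes. The reverse holds for ugt-59, with 7 counts beside sir-2.1 with 726. Members of 1 run can resemble each other in sequence, which was not analysed here, so counts between neighbours may be split.

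Genes that supply the sugar donor were not among those that rose. Of 7 genes of UDP-sugar supply 6 were tested, and without copper 0 rose and 2 fell in the mutant (median -0.22). They were sqv-4, the UDP-glucose dehydrogenase that makes UDP-glucuronate (-0.60 ± 0.18, adjusted p = 0.0295), and K08E3.5, a UTP-glucose-1-phosphate uridylyltransferase that makes UDP-glucose (-0.83 ± 0.24, adjusted p = 0.0268). In the other 4 comparisons 0 of the 6 were called (edgeR), with 1 unadjusted p under 0.05, in the interaction, and medians from -0.23 to 0.13. With the long-depleted libraries left out, 2 of the 6 were lower in the mutant on copper.

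Among cytochrome P450 genes, the enzymes of the first phase, 19 of 81 were tested. In the untreated mutant 2 rose and 6 fell, among them cyp-29A3 (2.80 ± 0.76) and cyp-34A9 (-2.28 ± 0.52), and without the long-depleted libraries (the reduced set) 1 rose and 3 fell. In the copper-treated mutant 1 rose and 2 fell, with cyp-33C8 at 1.85 ± 0.36 and cyp-35A2 at -2.45 ± 0.42. Copper lowered 1 in the mutant and 2 in the control and raised 0, and the interaction had 1 higher and 1 lower. In the reduced set copper raised 2 and lowered 4 in the mutant and raised 1 and lowered 2 in the control, the interaction had 2 higher and 4 lower, and 2 were higher and 3 lower in the copper-treated mutant. Of the glutathione S-transferases, which attach glutathione to reactive compounds, 22 of 44 were tested. Without copper 0 were higher and 1 lower in the mutant, and on copper 5 were higher and 0 lower. Copper raised 4 and lowered 0 in the mutant, and 0 were called for copper in the control or in the interaction, with 1 and 7 unadjusted p under 0.05. Examples were gst-24 (3.66 ± 0.50) and gst-38 (4.64 ± 0.66) in the copper-treated mutant against the copper-treated control. Without the long-depleted libraries 9 of these transferases rose in the untreated mutant and 1 fell, 7 rose in the copper-treated mutant, copper raised 5 in the mutant and 1 in the control, and the interaction had 1 higher and 2 lower.

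Efflux pumps of the pgp and mrp families had 14 of 23 genes tested. In the untreated mutant 3 rose, among them mrp-5 (1.88 ± 0.54) and mrp-6 (1.70 ± 0.57), and 0 fell, with a median of 1.42. In the reduced set 2 rose and 1 fell, with a median of 0.57. In the copper-treated mutant pgp-1 rose (2.58 ± 0.50) and 0 fell. Copper raised pgp-1 in the mutant (1.78 ± 0.45) and lowered 0, and 0 were called for copper in the control or in the interaction. The reduced set had 2 pumps higher on copper in the mutant than in the control, 1 raised and 1 lowered by copper in the mutant and 1 lower in the interaction. Of 12 regulators of detoxification, transcription factors and their partners, 10 were tested and 1 was called, nhr-86, a nuclear hormone receptor, which fell in the untreated mutant (-1.09 ± 0.38, adjusted p = 0.0494). In the reduced set 1 regulator rose on copper in the mutant and 1 was higher in the interaction. The calls over all genes for these comparisons are the shares given above.

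Markers of 6 tissues were read beside these values, and each of the 38 markers had counts and was tested. The 10 intestinal markers summed to 1258 to 1509 CPM in the copper-treated mutant, 1027 to 1201 in the untreated mutant, 989 to 1389 in the copper-treated control and 913 to 1752 in the untreated control, so the untreated groups overlapped. Between the genotypes without copper, 1 intestinal marker rose (pept-1, a peptide transporter, 1.46 ± 0.39) and 1 fell (elt-7, a GATA factor, -1.58 ± 0.48), with a median of -0.027 over the 10. On copper 2 rose in the mutant, the gut filament genes ifb-2 (1.28 ± 0.21) and ifc-2 (1.19 ± 0.26). With copper in the mutant 1 rose, in the interaction 2, and in the control 0. In the reduced set 3 rose and 1 fell with copper in the mutant, 1 fell with copper in the control, and 4 were higher and 2 lower in the interaction.

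The 6 sperm markers summed to 240 to 569 CPM in the copper-treated mutant, 291 to 348 in the untreated mutant, 89.0 to 145 in the copper-treated control and 88.1 to 307 in the untreated control. Of these 1 rose in the untreated mutant (median 0.61), 3 in the copper-treated mutant (median 1.47) and 0 fell. In the untreated mutant, 0 of 5 hypodermal markers were called, 1 of 6 neuronal markers rose and 1 fell, and 1 of 5 body wall muscle markers and 1 of 6 germline and oocyte markers fell. When the long-depleted libraries were left out, 1 untreated control library remained. Median log2 fold changes in the untreated mutant were then 1.86 for sperm, 0.98 for neuronal and 0.60 for muscle markers. The same 3 medians with all libraries were 0.61, 0.35 and 0.043. Without the long-depleted libraries the medians were 0.28 for hypodermal, 0.17 for intestinal and -0.37 for germline markers, against -0.0061 over all genes. In the copper-treated mutant, with all libraries, 1 hypodermal and 2 neuronal markers rose, and 0 of the muscle and germline markers were called. The reduced set had 5 of 5 muscle, 4 of 6 neuronal, 3 of 6 sperm, 3 of 10 intestinal and 2 of 5 hypodermal markers higher there, and 0 lower. In that fit 23.4% of all genes were called. With copper in the mutant, the reduced set had 4 of 6 neuronal and 1 of 5 muscle markers higher. There 3 of 6 sperm markers were lower, while 14.5% of all genes were called. With all libraries 0 of the neuronal, muscle and sperm markers were called for copper in the mutant. The calls over all genes for the other marker comparisons are the shares given above. The part of the markers in the ugt values was not tested.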

How the data were processed

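RNA of 16 whole-worm libraries was counted by a 3′ digital mRNA sequencing service (single reads, 100 cycles, per the labels' protocols). The authors deposited raw counts per gene, with no normalization. Per the submitters' processing notes, the tools include HTSeq, bcl2fastq and STAR 2.6.0a, and the build is ce11; settings, annotation release and strand setting are not given in the sources used here. Each of the 16 count columns was matched to its sample by its heading, and 0 count columns were left over. Members and gene lists were chosen with earlier results of these data known.

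The test was the robust quasi-likelihood test of edgeR 4.0.16 (R 4.3.3, limma 3.58.1) after TMM scaling and default filterByExpr. A single model with 4 group means took in the 16 libraries and left 12 residual degrees of freedom, with Benjamini-Hochberg adjustment over the 9787 genes tested. Adjusted p means this test throughout. The standard error is the fold change divided by the root of its F statistic. CPM used the same scaling. The fit was checked on simulated data. Replicate pairs of a group differed by more than sampling noise (lowest chi-square per degree of freedom 2.75). Positions and transcript lengths came from an Ensembl annotation of WBcel235 and covered 43064 of the 46904 genes and all 66 members.

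Named singly are the members called in at least 1 of 5 comparisons, the 5 with the most counts, and at most 2 genes of each other list in a comparison; members named beyond these (ugt-7, ugt-17, ugt-29, ugt-39 and untested ones) were chosen after their values were seen. Alternatives were DESeq2 size factors, every gene with at least 1 count, a filter at 5 CPM in 4 libraries, DESeq2 1.42.0, the replicate number as a block, the libraries of a comparison alone and leaving out each library. Leaving out the 5 long-depleted libraries (balance below -0.5) and the balance as a covariate were added after the data were seen.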

Additional observations from a re-analysis of the deposited data

Results flagged for a closer look

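In 3 of 64 sets of 4 libraries, 1 library lay apart from the rest of its group by more than 0.829 of the group's range, about the share that chance gives (1 in 20). For ugt-62, untreated control replicate 1, a long-depleted library, had 25.2 CPM, against 7.49 to 8.43 CPM in the rest of its group. For ugt-61, copper-treated control replicate 4 had 4.33 CPM, against 2.14 to 2.38 CPM. For ugt-41, untreated control replicate 3 had 0.882 CPM, which was 2 counts, where the rest of its group had 0. The copper response differed between the genotypes for ugt-22 (-2.38 on the log2 scale) and ugt-12 (-1.30), mutant minus control, both by the interaction test of the report.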

How the results depend on the processing

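Of the 17 calls of single members, 0 changed direction under any of the alternatives run. Calls among ugt genes in the untreated mutant numbered 10; with the replicate block they numbered 6, with the length balance as a covariate 4, and without 1 library 4 to 12. In the copper-treated mutant there were 2 calls, but 4 with DESeq2, 5 without the long-depleted libraries, 4 with the covariate and 2 to 3 without 1 library. For copper in the control the 1 call became 0 without a filter, with the replicate block, with the libraries of the comparison alone and with the covariate, and 0 to 3 without 1 library. For copper in the mutant the 2 calls became 6 with DESeq2, 5 with the libraries of the comparison alone, 9 without the long-depleted libraries and 1 to 2 without 1 library. For the interaction the 2 calls became 1 without a filter, 4 with DESeq2, 1 with the replicate block, 4 without the long-depleted libraries, 0 with the covariate and 1 to 5 without 1 library. The cause of these moves was not tested. Calls over all genes moved as well. In the untreated mutant they numbered 2141, and 743 to 3809 without 1 library. They numbered 678 in the copper-treated mutant (441 to 647 without 1 library) and 174 for copper in the control (44 to 884). For copper in the mutant they numbered 219 (112 to 171), and for the interaction 527 (330 to 2159). Calls over all genes with DESeq2, the replicate block, the covariate or the libraries of a comparison alone are not given here. Same-numbered libraries showed no steady likeness: their deviations correlated at over 0.1 in 6 of 24 pairs (-0.60 to 0.55). Of the 16 libraries 0 correlated best with their own number in every other group. The long-depleted libraries fall on different replicate numbers and enter these deviations, and a batch shared by number was not tested. Members with few counts limit what can be seen: 38 of 66 were not tested.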
